A study of Mus musculus with 12 samples.

Results

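The interferon-stimulated genes are genes that cells switch on after interferon binds its receptors. They were followed here as 31 genes chosen by symbol among the 26608 genes counted per library, and all 31 were found in the counts and passed the filter on low counts (at least 10 counts in enough libraries, by edgeR's filterByExpr). Between animals with and without Hif1a deletion, 29 of the 31 did not pass the test in either cell type. Slfn2 fell and Slfn5 rose in nonclassical monocytes of deleted animals. Between the cell types, Gbp3 was higher and Zbp1 lower in interstitial macrophages than in nonclassical monocytes, in control and in deleted animals. Each of these calls was lost in some of the alternative fits given below.

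Type I interferons bind a receptor made of Ifnar1 and Ifnar2, whose associated kinases phosphorylate Stat2. A complex that holds Stat2 and Irf9 then binds a promoter element, the interferon-stimulated response element (ISRE). Type II interferon acts through another element, the GAS site, and through induced factors such as Irf1. The induced proteins include sensors of viral nucleic acids, enzymes and GTPases that block viral replication, and feedback inhibitors. In monocytes and macrophages many of these genes also have a basal level without infection.

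The samples were 12 RNA-seq libraries of about 250 cells each, sorted from lungs of C57Bl/6 mice. Interstitial macrophages (IM), which reside in the tissue between airspaces and vessels, and nonclassical monocytes (NCM, libraries titled RM), which patrol vessel walls, were taken from animals of either of 2 genotypes. Deleted animals were Cx3cr1cre;Hif1αΔ/Δ, in which Cre recombinase driven by the chemokine receptor gene Cx3cr1 excises Hif1a, the gene of the oxygen-regulated HIF-1 subunit. Control animals were Hif1αflox/flox without Cre. Animals of all 4 groups were exposed to 3 weeks of hypoxia plus SU5416, a VEGF receptor inhibitor dosed weekly, a treatment used to produce pulmonary hypertension. No library came from untreated animals. The 4 groups had 3 libraries each, IM control (IM648, IM659, IM660), IM deleted (IM649, IM650, IM661), NCM control (RM648, RM657, RM659) and NCM deleted (RM649, RM650, RM661). Cre was present in deleted animals only, so Cre and the deletion cannot be told apart, and Cx3cr1 is active in both cell types and in other myeloid cells. The labels do not say whether a number stands for a separate animal, so p-values measure the spread between these libraries, which may be technical.

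Gene counts per library lay between 5332600 and 14099509. Macrophage markers separated the cell types (summed level of 17 genes 12330 to 19100 CPM in IM and 1296 to 4842 CPM in NCM libraries). Of 19 nonclassical monocyte markers, 12 passed as lower and 1 as higher in IM than in NCM control, and 10 and 1 in deleted animals, while 6 and 8 did not pass. Their sum did not separate the cell types, since IM control (12590 to 13880 CPM) lay above NCM deleted (5550 to 11910 CPM). CPM, the scale of all levels here, are counts scaled to a common library size with TMM factors. Hif1a itself was counted at 228 ± 15.6 CPM (SD, n = 3) in control and 199 ± 6.50 CPM in deleted macrophages, and at 225 ± 19.6 and 172 ± 34.8 CPM in control and deleted monocytes. Neither change passed the test, and counts over the whole gene do not measure the excision of part of it. Reads outside exons were 38.5 to 44.2% of exonic plus non-exonic reads in IM control and 55.1 to 72.7% in the other groups. Endothelial markers summed to 4253 to 10910 CPM in NCM deleted and to 1152 to 4125 CPM in the other groups. RM649 and RM650 had counts for 10526 and 11933 genes, the fewest of all libraries, and RM661 for 17179, the most.

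The promoters of the genes were read first, for the ISRE and the GAS site named above. RefSeq (GRCm38.p6) holds a window of 300 bases, from 250 bases before to 50 after a start site, for 24 of the 31 genes. The ISRE core, searched on both strands as GAAA, any 2 bases and GAAA again, occurred in a window of 15 of these 24 genes (62.5%) and in 1079 of all 27025 genes (3.99%). The GAS core TTCNNNGAA, which reads the same on both strands apart from its middle bases, occurred in 5 of the 24 (20.8%) and in 9.55% of all genes. Matches are descriptions of letters, not shown binding sites. The genes were chosen as interferon-stimulated genes, so a share above that of all genes is no result of these data. The sites of 4 antiviral genes described below show the variety of the element, with the matched core or overlapping cores in capitals, the TTTC form being the core on the opposite strand.
Isg15, chr4:156200870-156200901, minus strand: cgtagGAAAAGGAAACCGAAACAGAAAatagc
Ifit3, chr19:34583402-34583421, plus strand: gtctgTTTCAGTTTCtactt
Rsad2, chr12:26456558-26456577, minus strand: ccaacTTTCATTTTCagaaa
Oas3, chr5:120777720-120777739, minus strand: gaggaGAAAACGAAAgtgaa
Isg15 had 3 overlapping cores, whereas Rsad2 and Oas3 had 1 each in their windows and Ifit3 had 2 separate ones.

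Whole windows are shown for 3 of the 4 genes that passed a test (Zbp1 is named only). All 3 lie on the plus strand.
Slfn2, chr11:83064862-83065161: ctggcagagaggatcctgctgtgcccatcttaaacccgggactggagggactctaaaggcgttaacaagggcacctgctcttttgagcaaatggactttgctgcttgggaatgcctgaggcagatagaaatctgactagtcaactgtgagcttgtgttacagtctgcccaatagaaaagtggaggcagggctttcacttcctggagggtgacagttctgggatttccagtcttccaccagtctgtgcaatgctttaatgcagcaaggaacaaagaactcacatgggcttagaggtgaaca
Slfn5, chr11:82951852-82952151: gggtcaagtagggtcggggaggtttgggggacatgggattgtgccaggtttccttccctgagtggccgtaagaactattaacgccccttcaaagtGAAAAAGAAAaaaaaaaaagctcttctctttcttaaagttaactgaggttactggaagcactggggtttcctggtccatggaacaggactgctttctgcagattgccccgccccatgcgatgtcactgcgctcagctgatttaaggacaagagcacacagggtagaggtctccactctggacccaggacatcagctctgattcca
Gbp3, chr3:142559794-142560093: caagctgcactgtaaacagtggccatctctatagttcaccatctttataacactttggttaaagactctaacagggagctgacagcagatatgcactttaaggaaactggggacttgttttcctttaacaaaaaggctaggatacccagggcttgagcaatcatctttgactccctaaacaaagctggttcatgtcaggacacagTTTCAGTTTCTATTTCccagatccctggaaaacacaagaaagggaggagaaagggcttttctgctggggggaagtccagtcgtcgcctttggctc
Slfn2 had no core in its window. Slfn5 had 1 core, at position -155 relative to the start site, that runs into a stretch of A. Gbp3 had 2 overlapping cores, which span positions -45 to -30 relative to the first of its 2 annotated start sites.

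Levels spanned a wide range. Per kilobase of exon, the scale on which genes can be compared, Slfn2 was highest over the 12 libraries (215 CPM per kb), followed by Irf1 (53.3), Ifi204 (26.95), Gbp3 (24.8) and Gbp2 (23.3), and Ifi44 was lowest (0.153). Isg15, often used as a readout of interferon signalling, reached only 2.93 CPM per kb and 284 counts in all libraries together. Of the 31 genes, 6 reached a mean of 100 CPM in some group, 12 had a mean of at least 10 CPM in all 4 groups, and 8 stayed under 10 CPM in all 4. A count was found in all 12 libraries for 18 of the genes. IM libraries lacked 0 or 1 of the 31 genes and NCM control libraries 0 to 3. In NCM deleted, RM649 lacked 12 and RM650 lacked 8, mostly Ifit, Oas and related antiviral genes, whereas RM661 had counts for all 31. A level of 0 in RM649 or RM650 allows up to 0.495 or 0.441 CPM (3 counts), counting error only.

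**Figure D1:**
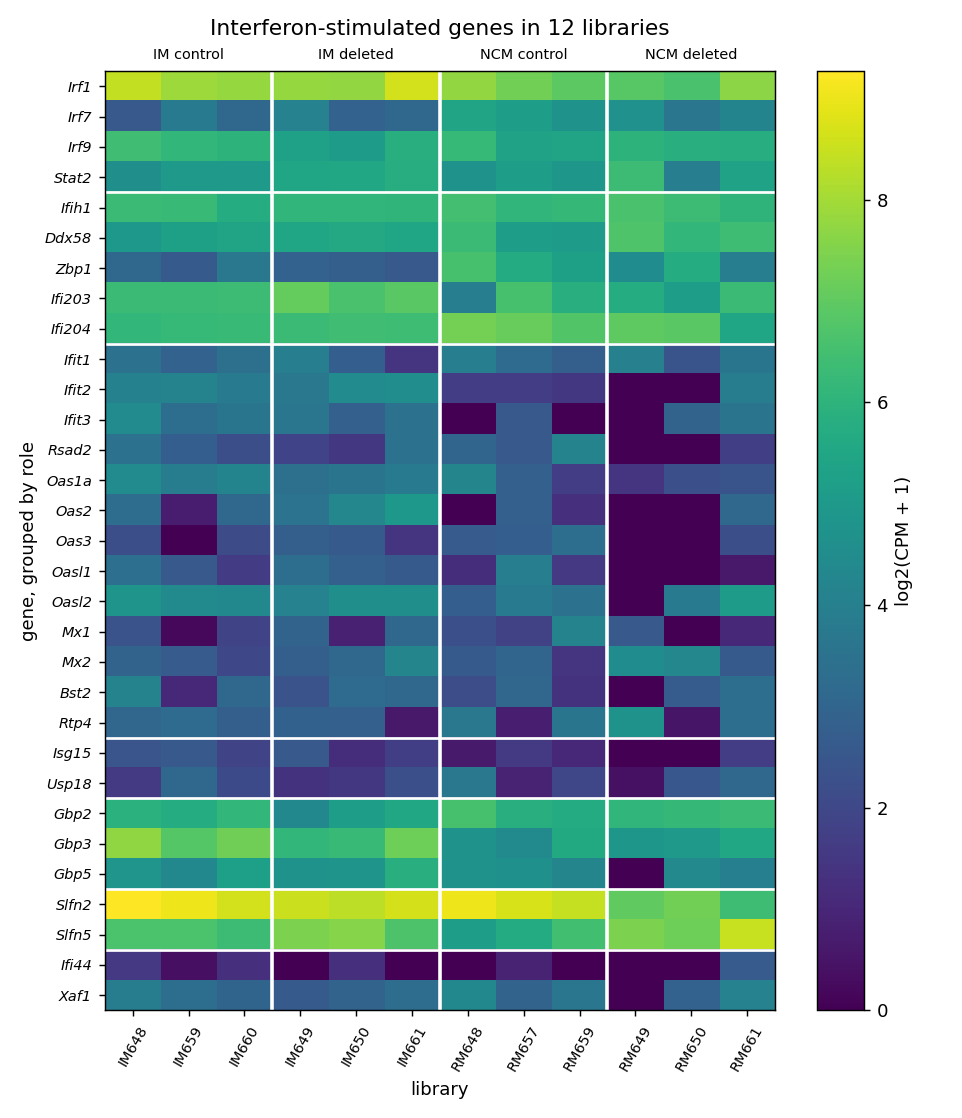
Level of each of the 31 genes (vertical axis, grouped by role) in each of the 12 libraries (horizontal axis, grouped by cell type and genotype), as log2(CPM + 1) by colour. Slfn2 and Irf1 are bright throughout, and the darkest cells lie in RM649 and RM650, which had no count for 12 and 8 of the genes.

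The first question was whether loss of Hif1a in Cx3cr1-expressing cells went with a change of these genes in interstitial macrophages. None of the 31 passed edgeR's quasi-likelihood test (smallest Benjamini-Hochberg adjusted p = 0.442, over 14254 genes), where 0.288% of all genes did (0.239% higher and 0.0491% lower). At an unadjusted p under 0.05 there were 2, Irf9 and Gbp2, beside 1403 of all 14254 genes. DESeq2 called 0 members and 3.5% of the 12586 genes to which it gave an adjusted p. Ifi44 had none here, and Ifit2 had none in any comparison. The median log2 fold change of the 31 was -0.07, beside 0.07 over all genes, with 14 above and 17 below 0. Deleted and control libraries did not overlap for 9 of the 31 (29.0%), and for 29.6% of all genes tested, so the share was near the background.

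The 4 transcription factors are the core of the response. Irf1, a factor induced by interferon gamma, was at 343, 238 and 223 CPM in the IM control libraries, in the order given above, and at 221, 217 and 394 CPM in IM deleted. The single highest IM library was the deleted library IM661, and the groups overlapped (log2 fold change 0.05, 95% interval -0.66 to 0.76). Irf7, the factor that amplifies type I interferon production, was at 5.04, 12.6 and 7.596 CPM in IM control and 16.1, 6.58 and 7.71 CPM in IM deleted, again with overlap. Irf9, the DNA-binding partner of Stat2, was at 84.6, 68.6 and 63.3 CPM in control and 38.5, 33.4 and 56.8 CPM in deleted libraries. All 3 deleted values of Irf9 lay below all controls, yet the difference did not pass (log2 fold change -0.75, SE 0.34, edgeR adjusted p = 0.482). Stat2 ran the other way, at 28.5 ± 4.49 CPM in control and 47.95 ± 5.18 CPM in deleted macrophages without overlap, and did not pass either (log2 fold change 0.75, edgeR adjusted p = 0.74). Stat2 overlaps the gene Apof, and without a stated strand setting their reads cannot be told apart.

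Among the sensors, Ifih1 (the sensor of long double-stranded RNA, MDA5) gave the tightest estimate. Its level was 79.2, 74.4 and 52.5 CPM in IM control and 67.4, 67.8 and 66.04 CPM in IM deleted libraries, and the 95% interval of its log2 fold change was -0.64 to 0.57. Ddx58 (the RNA sensor RIG-I), Ifi203 and Ifi204 (2 members of a DNA-sensing family) lay higher in all 3 deleted than in all 3 control libraries, by small amounts. Ifi204 was at 68.9, 72.3 and 77.1 CPM in control and 78.6, 84.2 and 82.4 CPM in deleted macrophages (log2 fold change 0.17), and Ifi203 showed the largest of these differences (0.54, edgeR adjusted p = 0.885). Zbp1, a sensor of Z-form nucleic acids that can start cell death, was low in both groups, at 8.403 ± 3.54 and 5.83 ± 0.786 CPM.

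Of the 13 antiviral effectors, 6 lay above and 7 below 0 in macrophages. Oas2, an enzyme that makes the activator of RNase L, was at 8.83, 0.664 and 7.68 CPM in IM control and 10.6, 18.6 and 29.8 CPM in IM deleted. The deleted libraries were all higher, and the estimate was wide (log2 fold change 1.78, SE 1.69, edgeR adjusted p = 0.909). Its relative Oas1a lay lower in all 3 deleted libraries (17.6 ± 3.57 against 11.4 ± 1.96 CPM, log2 fold change -0.63). Ifit3, a member of the Ifit family of RNA-binding antiviral proteins, was at 21.5, 9.22 and 11.03 CPM in control and 11.6, 6.18 and 10.01 CPM in deleted libraries, with overlap. Isg15, the ubiquitin-like modifier, was at 4.45, 4.94 and 2.72 and 4.99, 1.32 and 2.300 CPM, and its interval (-3.97 to 2.99) covers large changes in either direction. Usp18, which removes Isg15 from proteins and restrains the receptor, was at 4.26 ± 2.91 and 2.404 ± 1.21 CPM. Mx1, an antiviral GTPase gene that carries a defective allele in C57BL/6 mice, was at 2.34 ± 2.03 and 5.06 ± 3.72 CPM, and its relative Mx2 was at 5.05 ± 1.89 and 10.4 ± 6.37 CPM.

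The guanylate-binding proteins are GTPases that attack membranes around intracellular pathogens. Gbp2 was at 59.98, 52.03 and 69.5 CPM in IM control and 19.2, 35.8 and 46.3 CPM in IM deleted. The deleted values were all below the controls, and Gbp2 had the smallest p of the 31 genes in macrophages without passing (log2 fold change -0.84, unadjusted p = 0.0354, edgeR adjusted p = 0.442). Gbp3 overlapped between the genotypes (log2 fold change -0.70, edgeR adjusted p = 0.65), and so did Gbp5. The 2 schlafens of the list moved in opposite directions, as described next, without passing in macrophages.

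**Figure D2:**
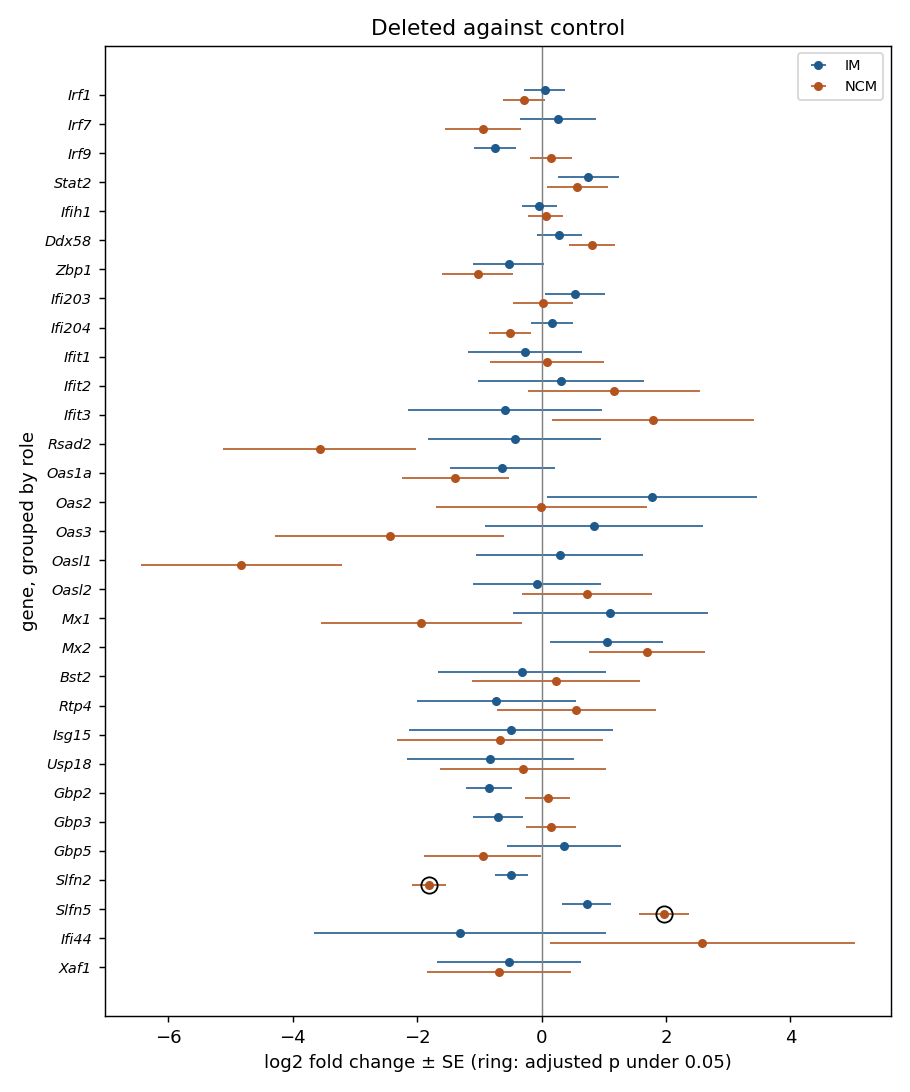
Log2 fold change between deleted and control libraries (horizontal axis, bars are ± 1 SE from the edgeR fit) for each of the 31 genes, in IM (blue) and NCM (brown), with rings around changes that passed. The 2 rings are Slfn2 at -1.81 and Slfn5 at 1.97 in NCM, and long bars mark genes of low count such as Oasl1, Oas3 and Ifi44.

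In nonclassical monocytes, Slfn2 fell and Slfn5 rose in deleted animals, and these were 2 of the 31 genes, where 0.421% of all genes tested passed (0.0842% higher and 0.337% lower). Both encode schlafens, a family tied to control of proliferation and of translation in immune cells. Slfn2 is known for keeping T cells and monocytes quiescent, and Slfn5 for acting in the nucleus on interferon-induced transcription. Slfn2 (GRCm38 chr11:83065112-83070678) and Slfn5 (chr11:82951349-82964850) lie in the same cluster on chromosome 11.

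Slfn2 was at 519, 419.6 and 354 CPM in NCM control libraries and at 129, 157 and 82.5 CPM in NCM deleted. All 3 deleted libraries lay well under the lowest control library, and under all 6 IM libraries as well. The mean went from 431 ± 82.9 to 123 ± 37.4 CPM (SD, n = 3), 3.52-fold lower (log2 fold change -1.81, SE 0.28, edgeR adjusted p = 0.0181). In macrophages it was at 616, 519 and 395 CPM in control and 369, 322 and 403 CPM in deleted libraries. Those overlapped, since IM661 was above IM660 (log2 fold change -0.48, edgeR adjusted p = 0.636).

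Slfn5 was at 34.5, 51.4 and 88.3 CPM in NCM control and at 173, 147 and 363 CPM in NCM deleted. The deleted libraries were all higher, RM661 far above the other two. The rise was 3.92-fold (log2 fold change 1.97, SE 0.40, edgeR adjusted p = 0.0472), and without RM661 it was smaller and still passed (1.46, edgeR adjusted p = 0.0426). In macrophages Slfn5 was at 98.9, 100.1 and 80.8 CPM in control and 172, 189.6 and 101 CPM in deleted libraries. No deleted library overlapped the controls, though IM661 lay only just above them, and the change did not pass (log2 fold change 0.73, edgeR adjusted p = 0.614).

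Both calls were near the limit of the edgeR test. The fit with the non-exonic share kept both. DESeq2 called both as well (adjusted p = 9.21e-06 for Slfn2 and 0.000371 for Slfn5), where it called 7.83% of the 13968 genes with an adjusted p. Slfn2 did not pass without IM659 or without RM657 (edgeR adjusted p up to 0.0816). Slfn5 did not pass without any one of IM648, IM659, IM660, IM649, IM650, RM648 and RM657 (edgeR adjusted p up to 0.164). The sequencing lane was read from the names of the deposited counts. With that lane in the fit the estimates were -1.80 and 2.01 with edgeR adjusted p = 0.0874 and 0.155. In a fit of the 6 NCM libraries alone they were -1.70 for Slfn2 and 2.09 for Slfn5, and neither passed (edgeR adjusted p = 0.253 and 0.277). Within lane 6, on the log2(CPM + 1) scale and with 1 deleted against 2 control libraries, the differences were -1.29 for Slfn2 and 1.11 for Slfn5. Within lane 8, with 2 against 1, they were -2.32 and 2.82. Slfn2 shares its locus with the gene model Gm20234, and their reads cannot be told apart either.

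Markers of other cells moved along with the schlafens in monocytes. Of 19 endothelial markers, all 19 lay above 0 in NCM deleted against control (median log2 fold change 1.77, 0 passed the test), none was at 0 in a whole NCM group, and their sum went from 1165 to 3476 CPM to 4253 to 10910 CPM. RM661 had the highest endothelial sum and the highest Slfn5 of all 12 libraries. Epithelial markers (11 above and 1 below 0) and fibroblast and smooth muscle markers (9 and 1) leaned the same way, none past the test. RM661 had the highest sums of these lists too. Alveolar macrophage (7 and 3), dendritic cell (7 and 5), B cell (4 and 4), classical monocyte (3 and 3) and T and NK cell markers (5 and 7) were more divided. Neutrophil markers lay below 0 (0 and 5). Of 19 nonclassical monocyte markers, 18 lay below 0 (median -0.94, 1 passed), with sums of 14110 to 20750 CPM in control and 5550 to 11910 CPM in deleted libraries. RM661 had the lowest of these sums and the lowest Slfn2. In macrophages the endothelial sums overlapped (1152 to 3433 and 1179 to 4125 CPM), whereas the nonclassical monocyte sums went from 12590 to 13880 CPM down to 7210 to 8618 CPM. The macrophages' own markers went from 18480 to 19100 CPM down to 12330 to 14830 CPM (0 of 17 passed). Alveolar macrophage markers in these libraries went from 1942 to 2018 CPM down to 650 to 1794 CPM (all 10 below 0, 0 passed). Nuclear RNAs, a sign of RNA composition, summed to 8925 to 17580 CPM in control and 40530 to 54970 CPM in deleted macrophages (3 of 7 passed as higher), and to 22160 to 40640 and 35270 to 40160 CPM in monocytes (0 of 7 passed). The part of these shifts in the values of the 31 genes was not tested, and in bulk libraries fewer cells of a type and less RNA per cell cannot be told apart.

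**Figure D3:**
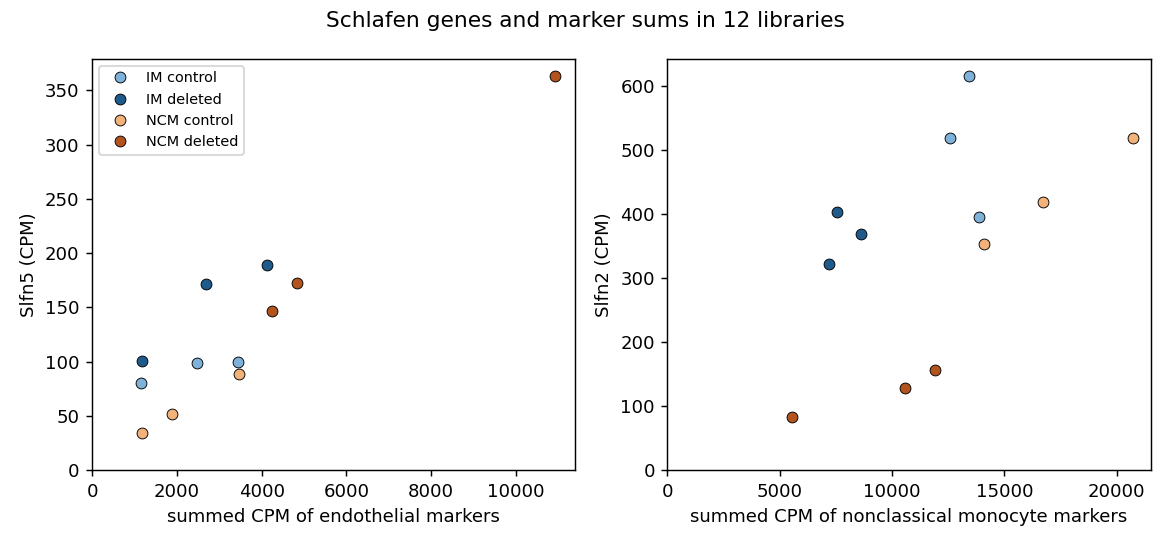
Level of Slfn5 (left, CPM) against the summed CPM of 19 endothelial markers, and of Slfn2 (right, CPM) against the summed CPM of 19 nonclassical monocyte markers, one point per library coloured by group. The NCM deleted libraries have the highest endothelial sums and the lowest Slfn2 levels, and RM661 has the highest Slfn5 level.

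The other 29 genes did not pass in monocytes. Over all 31 genes the median log2 fold change was 0.02, beside -0.10 over all genes, with 16 above and 15 below 0. Of the 31, 5 had an unadjusted p under 0.05 in the edgeR test, beside 2301 of all 14254 genes. With RLE size factors in place of TMM the medians were 0.18 and 0.04. Deleted and control libraries did not overlap for 6 of the 31 (19.4%), beside 17.3% of all genes. DESeq2 called the same 2 schlafens and Oasl1, where it called 7.83% of the 13968 genes with an adjusted p.

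The 4 genes besides the schlafens without overlap were Irf7, Rsad2, Oas3 and Oasl1, all lower in deleted monocytes. Irf7 was at 41.3, 35.8 and 25.2 CPM in NCM control and 24.7, 11.5 and 17.1 CPM in NCM deleted (log2 fold change -0.94, edgeR adjusted p = 0.486). RM649 lay just under the lowest control library. Rsad2, which encodes viperin, an enzyme that makes a chain-terminating nucleotide, was at 7.23, 5.02 and 16.7 CPM in control and 0, 0 and 2.31 CPM in deleted libraries (-3.57, 95% interval -6.86 to -0.27, edgeR adjusted p = 0.272). Oas3, a relative of Oas2, was at 5.31, 5.87 and 9.22 and 0, 0 and 3.64 CPM (-2.44, edgeR adjusted p = 0.552).

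Oasl1, an Oas-like protein that restrains translation of Irf7, was at 1.33, 14.8 and 1.94 CPM in NCM control and 0, 0 and 0.533 CPM in NCM deleted. Among the control libraries, RM657 was far above the other two. The edgeR estimate was -4.83 (SE 1.62, adjusted p = 0.148) and that of DESeq2 was -4.71 (adjusted p = 0.00962), so the call depended on the tool. For Rsad2, Oas3 and Oasl1 the zeros were in RM649 and RM650, the libraries with the fewest genes detected.

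Other antiviral genes did not follow that order. Ifit3 was at 0, 5.02 and 0 CPM in NCM control and 0, 6.76 and 10.7 CPM in NCM deleted, with zeros in both groups. Ifit2, of the same family as Ifit3, was at 2.21, 2.202 and 1.82 and 0, 0 and 13.8 CPM, so that RM661 alone was above the controls. Mx2 was at 5.16, 7.22 and 1.698 and 21.9, 18.5 and 5.15 CPM, with its 2 highest values in the deleted libraries RM649 and RM650 (log2 fold change 1.69, edgeR adjusted p = 0.395). Isg15 was at 0.590, 1.96 and 1.09 and 0, 0 and 2.22 CPM, near the limit of detection in both groups. Among the sensors, Ddx58 was at 77.9, 35.2 and 34.2 and 105, 69.2 and 83.9 CPM (0.81, edgeR adjusted p = 0.293), and Ifih1 again had a narrow interval (-0.53 to 0.67).

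RM661 weighed on these estimates. Without it, 3 genes passed as lower in deleted monocytes, Slfn2 (log2 fold change -1.59, edgeR adjusted p = 0.00707), Rsad2 (edgeR adjusted p = 0.0321) and Ifit2 (edgeR adjusted p = 0.025), and the median of the 31 was -0.65. No fold is given for Rsad2 and Ifit2 because both remaining deleted libraries had no count. Those libraries, RM649 and RM650, had the fewest genes detected. The share of all genes that passed in this fit is not given, so the count and the median lack a background.

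**Figure D4:**
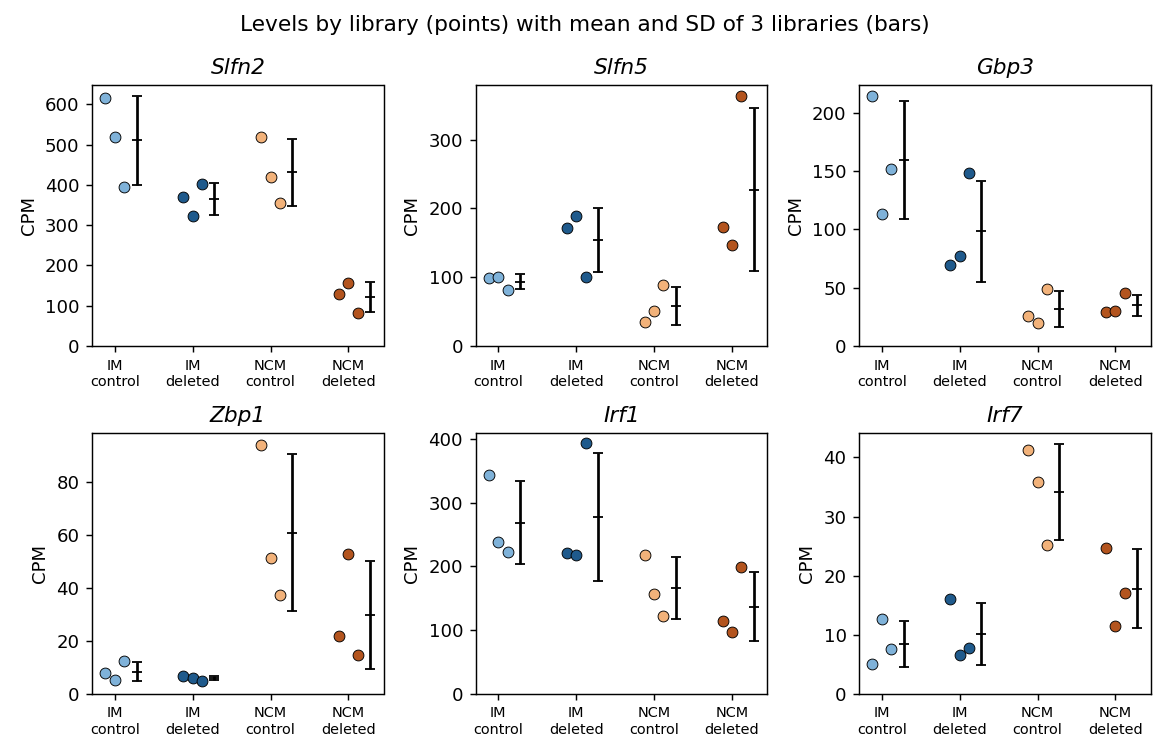
Levels in CPM (vertical axes, linear) of Slfn2, Slfn5, Gbp3, Zbp1, Irf1 and Irf7 in the 4 groups (horizontal axes), with 1 point per library and the mean ± SD of 3 libraries beside them. Slfn2 is lowest in NCM deleted, Gbp3 is low in all 6 NCM libraries, and Zbp1 is low in all 6 IM libraries.

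The deletion effects of the cell types were then set against each other. No member passed the test of the difference, nor did any gene at all (0% called, smallest adjusted p over all genes 0.139). Among the members 3 had an unadjusted p under 0.05, Slfn2, Oasl1 and Slfn5, beside 1271 of all 14254 genes. DESeq2 called 0 members and 0.686% of the 15736 genes with an adjusted p. The difference (IM minus NCM) was 1.33 for Slfn2 (SE 0.38, unadjusted p = 0.0031, edgeR adjusted p = 0.369) and -1.24 for Slfn5 (SE 0.55, unadjusted p = 0.0385, edgeR adjusted p = 0.551). A schlafen change confined to monocytes is therefore not shown, although each passed in monocytes and not in macrophages. For Oasl1 the difference was 5.12 (95% interval 0.76 to 9.48).

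Between the cell types, 2 of the 31 genes passed in control animals, Gbp3 higher and Zbp1 lower in macrophages, where 7.48% of all genes passed (2.81% higher and 4.67% lower). In deleted animals 3 passed, Gbp3 and Slfn2 higher and Zbp1 lower, where 4.57% of all genes passed (3.22% higher and 1.35% lower). DESeq2 called Gbp3 higher and Irf7 and Zbp1 lower in control animals, with 13.4% of the 14317 genes with an adjusted p. In deleted animals it called Gbp3, Oasl1 and Slfn2 higher and Gbp2 and Zbp1 lower, with 9.44% of 13968 such genes. Unadjusted p in the edgeR test was under 0.05 for 4 and 8 of the 31, beside 2865 and 2200 of all 14254 genes. The median log2 difference (IM minus NCM) of the 31 was 0.11 in control and 0.38 in deleted animals, beside 0.06 and 0.14 over all genes. Libraries of the cell types did not overlap for 10 genes in control (32.3%, beside 35.8% of all genes) and 11 in deleted animals (35.5%, beside 22.2%). IM and NCM libraries ran in different lanes, so lane and cell type cannot be told apart. The comparisons share their libraries with the deletion comparisons above.

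Gbp3 (GRCm38 chr3:142560016-142573213) was at 214, 113 and 152 CPM in IM control and 25.4, 19.9 and 48.9 CPM in NCM control. Every macrophage library was above every monocyte library, 5.08-fold in the fit (log2 fold change 2.34, SE 0.42, edgeR adjusted p = 0.00302). In deleted animals it was at 69.1, 77.2 and 148 CPM in IM and 29.4, 30.3 and 45.4 CPM in NCM. The order was kept with a smaller gap (2.799-fold, edgeR adjusted p = 0.0495), and this call was lost without any one of IM648, IM659, IM660, IM649, IM650, IM661, RM648, RM649 and RM650 (adjusted p up to 0.375), with RLE size factors and in a fit of the 6 deleted libraries alone (edgeR adjusted p = 0.159). Gbp2, near it on chromosome 3, was at 60.5 ± 8.74 CPM in IM and 67.5 ± 23.9 CPM in NCM of control animals and did not pass (log2 fold change -0.16, edgeR adjusted p = 0.892). Gbp5 did not pass either (0.31, edgeR adjusted p = 0.921). The Gbp genes are close copies of each other, so reads that align to several of them may be lost or split.

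Zbp1 (GRCm38 chr2:173206612-173218959) showed the reverse order. In control animals it was at 7.74, 5.24 and 12.2 CPM in IM and 94.1, 51.1 and 37.2 CPM in NCM libraries. Every macrophage library was below every monocyte library, and the fitted level was 7.23-fold lower in macrophages (log2 fold change -2.85, SE 0.60, edgeR adjusted p = 0.00835). In deleted animals it was at 6.57, 5.92 and 5.01 CPM in IM and 21.9, 52.9 and 14.6 CPM in NCM. The groups again did not overlap (5.098-fold lower in macrophages, edgeR adjusted p = 0.0329). Without IM648, IM659 or RM648 the control call was lost (adjusted p up to 0.0671), and without IM649, IM650, IM661, RM657 or RM650 the deleted call was (adjusted p up to 0.146). The deleted call of Zbp1 was also lost in a fit of the 6 deleted libraries alone (edgeR adjusted p = 0.189). With the library number as a block, neither Gbp3 (edgeR adjusted p = 0.0728 in control and 0.113 in deleted animals) nor Zbp1 (0.0921 and 0.171) passed, although the numbers were not taken to pair libraries.

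Slfn2 differed between the cell types in deleted animals (2.98-fold higher in macrophages, log2 fold change 1.57, SE 0.27, edgeR adjusted p = 0.00264), a call that was lost in a fit of the 6 deleted libraries alone (1.51, edgeR adjusted p = 0.0592). In control animals its interval was -0.32 to 0.81. Its level per kilobase was 307 CPM in control macrophages, 259 in control monocytes, 219 in deleted macrophages and 73.7 in deleted monocytes. It ranked first among the 31 genes in every group.

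Irf7 and Irf1 leaned in opposite directions. In control animals Irf7 was lower in every IM than in every NCM library (8.42 ± 3.86 against 34.1 ± 8.18 CPM, log2 fold change -2.02, edgeR adjusted p = 0.0668, DESeq2 adjusted p = 0.00382), whereas Irf1 was higher in every IM library (268 ± 65.2 against 166 ± 48.9 CPM, 0.69, edgeR adjusted p = 0.267). Ifi204 was lower in IM control without overlap (-0.89, edgeR adjusted p = 0.144). Ifit2 was at 15.8, 16.6 and 12.7 CPM in IM control and 2.21, 2.202 and 1.82 CPM in NCM control, the widest gap among the effectors with counts in all 6 libraries, and did not pass (2.85, SE 1.44, edgeR adjusted p = 0.295). Ifih1 had an interval of -0.75 to 0.45 in control animals.

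With the non-exonic share of the reads as a covariate, neither Gbp3 (log2 fold change 1.47, edgeR adjusted p = 0.563) nor Zbp1 (-1.15, edgeR adjusted p = 0.754) passed in control animals. In control animals that share was 38.5 to 44.2% in IM and 58.1 to 66.8% in NCM libraries, so it and the cell type cannot be told apart. Without RM661, 8 genes passed as higher in deleted macrophages than in deleted monocytes, Gbp3, Ifit2, Irf1, Isg15, Oas2, Oasl1, Rsad2 and Slfn2, and the median of the 31 was 1.31. That fit left only RM649 and RM650 in NCM deleted, the libraries with the fewest genes detected. The share of all genes that passed in it is not given, so the count and the median lack a background.

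**Figure D5:**
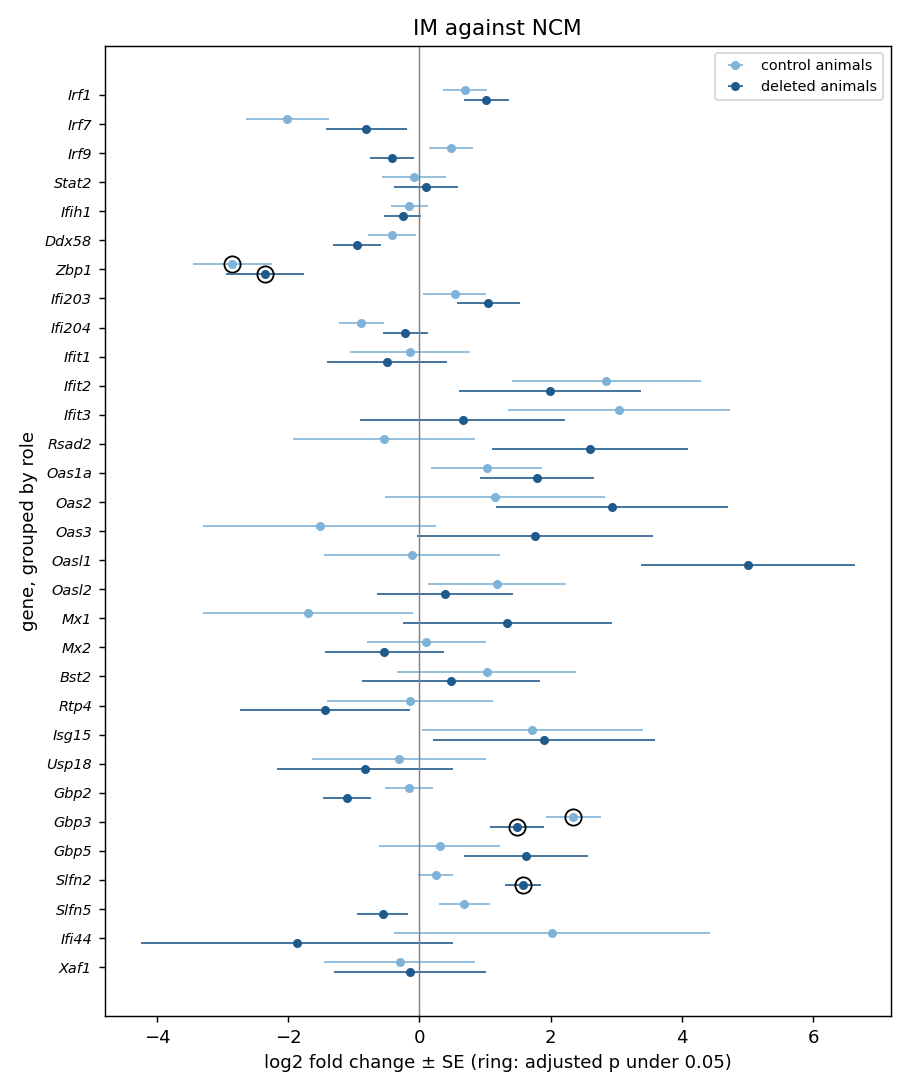
Log2 fold change of IM against NCM (horizontal axis, bars are ± 1 SE from the edgeR fit) for each of the 31 genes in control (light) and deleted animals (dark), with rings around differences that passed. Zbp1 lies at -2.85 and -2.35, Gbp3 at 2.34 and 1.49, and Slfn2 is ringed at 1.57 in deleted animals.

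Genes of the wider pathway were counted from a list of 100, of which 99 were in the files and 87 were tested. None of the 87 passed for the deletion in either cell type. The 5 tested receptor genes all lay below 0 in NCM deleted against control, also with RLE size factors. Ifnar2, a subunit of the type I receptor, was at 244, 152 and 193 CPM in NCM control and 80.3, 109.6 and 74.9 CPM in NCM deleted. These did not overlap, and the change missed the threshold (log2 fold change -1.15, edgeR adjusted p = 0.0502). Ifnar2 had the largest fall of the 5 receptor genes, whose log2 fold changes ran from -1.15 to -0.52. For the inhibitors, 8 of 8 lay below 0 (7 of 8 with RLE), and for the sensing genes upstream of interferon 12 of 13 (10 of 13 with RLE), none past the test. The largest list, 54 other interferon-induced genes, had 24 above and 29 below 0 (28 and 25 with RLE), and of all 14254 genes 7709 lay below 0. The markers of nonclassical monocytes lay below 0 in the same comparison, as given above, and their part was not tested.

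Between the cell types, 13 of the 87 passed in control (14.9%, 5 higher and 8 lower in macrophages), where 7.48% of all genes did, and 8 in deleted animals (9.2%, 4 and 4), where 4.57% did. Ifngr1, a subunit of the type II receptor, was lower in macrophages (-1.37 and -1.07 in control and deleted animals, edgeR adjusted p = 0.0053 and 0.0299). Il10rb, shared by the type III interferon and interleukin 10 receptors, was higher (1.58 and 1.87, edgeR adjusted p = 0.00226 and 0.00081). Samhd1, which depletes nucleotides, and Ifitm3, which blocks viral entry, were lower in macrophages in both genotypes, and Ciita, the master regulator of MHC class II, was higher. Of 12 ligand genes, 2 passed the filter on low counts. Ifnk, which encodes the type I interferon kappa, was at 21.98, 7.71 and 8.61 CPM in NCM control, 0, 15.7 and 1.24 CPM in NCM deleted and 1.84 to 6.45 CPM in the 6 IM libraries. Ifng, the type II interferon, was at 2.66, 2.94 and 11.4 CPM in NCM control and 0, 0.147 and 1.24 CPM in NCM deleted, and had no count in 4 of the 6 IM libraries. Neither passed in any comparison. No count of the listed Ifna genes, Il28a or Il28b was found in any library, and Ifnb1 was counted in IM libraries only.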

How the data were processed

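The deposited values are unnormalized read counts for 26608 gene symbols in each of the 12 libraries, plus 5 summary rows. Per the labels' protocols, RNA went into a strand-preserving total RNA kit made for very small inputs. The submitters' processing notes name cutadapt 1.12 and TopHat2 2.1.1, with HTSeq 0.6.0 and the build GRCm38 (mm10). Tool options, annotation, strand setting and the treatment of multiply aligned reads remain not given in the sources used here. Total RNA libraries keep unspliced RNA, and the summary rows, left out of library sizes, held 45.0 to 74.1% of a library's reads (4.44 to 9.02% were multiply aligned). Genes with close copies (Gbp, Oas, Slfn, Ifi203 and Ifi204, Ifit) may therefore be undercounted.

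The counts were analysed in R 4.3.3 with edgeR 4.0.16 (TMM factors, filterByExpr by group with a minimum count of 10, robust quasi-likelihood fit of 4 group means over all 12 libraries). Of the genes, 14254 were tested. A gene passed at a Benjamini-Hochberg adjusted p under 0.05 over all genes tested. Levels are CPM with TMM-scaled library sizes, divided by GENCODE M21 exon length where genes are compared, and fold changes come from the fit. Alternatives were RLE size factors, no filter, the non-exonic share, the lane or the library number as a term, fits of 6 libraries, each library left out, DESeq2 1.42.0 and limma 3.58.1. Promoters came from RefSeq (GRCm38.p6) and figures from matplotlib 3.10.9 in Python 3.11.15. Total gene counts were 5332600 to 14099509 per library, and intervals and zero limits cover counting error or the spread between libraries only.

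The members and the pathway and marker lists were chosen with earlier results of these data known. Values by library are given for members past the test in any comparison and for Irf7, Isg15 and Ifit3. They are also given for members with no overlap between genotypes and a log2 fold change of at least 1 in size, and for the 3 with the highest level per kilobase. Of these, Irf1, Ifi204 and Oas2 have values by library in the text for IM only, and Rsad2, Oas3 and Oasl1 for NCM only. Further members with values by library (Irf9, Ifih1, Ddx58, Gbp2, Ifit2 and Mx2) and Ifnar2 were chosen after their values were seen. Values of 1 gene of the pathway list are not reported here.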

Additional observations from a re-analysis of the deposited data

How the results depend on the processing

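Slfn2, Slfn5, Gbp3 and Zbp1 kept the direction of each of their calls under every alternative run. Over all 31 genes, called or not, at least 1 alternative turned the fitted direction of 18 for the deletion in IM, 14 in NCM, 16 for the difference, and 21 and 6 between cell types in control and deleted animals. Of these, 1 passed in the turned direction (Ifit2 in NCM, log2 fold change 1.17 with all libraries and lower without RM661). Among 31 members, the deletion in IM gave 0 calls under every alternative run. Over the 12 fits that leave out 1 library each, NCM deletion calls ranged from 0 to 1 higher and 0 to 3 lower (median log2 fold change -0.65 to 0.13). The median difference of effects ranged from -0.29 to 0.43. IM against NCM in control animals gave 1 to 2 higher and 0 to 2 lower, and in deleted animals 1 to 8 higher and 0 to 1 lower (median 0.021 to 1.31). Where a fit leaves 2 libraries in a group, they are assumed to vary like the others. Shares and medians over all genes are not given for these fits, so the ranges lack a background.

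RLE size factors left 1 member higher in deleted IM than deleted NCM. The non-exonic covariate gave medians of 0.85 (IM deletion), 0.84 (difference), -0.26 (IM against NCM, control) and 0.75 (deleted). Between the cell types it gave 0 calls in either direction in control and 3 higher in deleted animals. In IM the share was 38.5 to 44.2% in control and 59.2 to 69.8% in deleted libraries. Gene counts were 13333039 to 14099509 and 7039631 to 9054232. Neither can be told apart from the genotype in IM. The lane covariate gave 0 calls in NCM and a median of -0.45. Fits of 6 libraries gave 0 calls in NCM, 2 higher and 3 lower between cell types in control animals, and 0 and 0 in deleted animals. DESeq2 called 2 lower in NCM, in control and in deleted animals, and 3 higher in deleted animals. Calls over all genes moved as well, with 41 by edgeR and 440 by DESeq2 for IM, and 60 and 1093 for NCM. For the RLE, covariate and 6-library fits, shares and medians over all genes are not given in this paragraph. Their member counts and medians therefore lack a background.

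Library numbers recur in both cell types, but deviations of same-numbered libraries were hardly correlated (r = 0.02, 0.12, 0.02, -0.06 and -0.07), so the numbers were not taken to pair libraries. With the number as a block, the median difference of effects was 0.40, IM against NCM gave 0 and 0 calls (median 0.40) in control animals and 1 higher and 0 lower (median 1.03) in deleted animals. As a random block in limma voom it kept the calls of both schlafens in NCM (median -0.74). Shares and medians over all genes are not given for the block fits either, so these counts and medians lack a background.

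The causes of these shifts were not tested. The 95% interval of the log2 change lay within ± 1 for 3 of the 31 genes in IM and 4 in NCM and was wider than 4 units for 14 in each.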
